A study of Mus musculus with 10 samples.

Results

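The 10 genes described here stand for the making, loading and uptake of lipoproteins in mouse pancreatic islets. They are Apob, Apobec1, Mttp, Apoe, Apoc1, Apoc2, Lpl, Cd36, Msr1 and Abca1. They were chosen by name, and 11 of the 47340 rows of the table carry their 10 symbols. RNASeq was performed on islets of 5 floxed control mice (FIT2 fl/fl, FL) and 5 mice with β cell FIT2 deletion (βFIT2KO, KO), with 1 library per mouse. All were male, 12 wk old and fed chow, and all carried the floxed FIT2 alleles. The KO mice also expressed Cre recombinase from a rat insulin promoter, so the deletion and the Cre transgene cannot be told apart in these libraries, and mice with Cre alone were not analysed here. The FL libraries are titled as floxed, although their genotype label reads wild type. The islets were cultured overnight before RNA was taken.

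Lipoproteins are particles that carry fat and cholesterol between tissues. Liver and gut build them on apolipoprotein B, which the microsomal triglyceride transfer protein loads with lipid in the ER, and in mice the Apob messenger is edited by the deaminase Apobec1 so that a shortened protein is made. Apolipoproteins E and C sit on the finished particles, where apolipoprotein E binds receptors and apolipoprotein C2 activates lipoprotein lipase. Lipoprotein lipase frees fatty acids from the particle, CD36 takes up fatty acids and oxidised lipoprotein, the macrophage scavenger receptor Msr1 takes up modified lipoprotein, and the transporter Abca1 returns cholesterol to apolipoprotein acceptors. Pancreatic islets hold β cells and other endocrine cells together with macrophages, endothelial cells and stromal cells.

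In KO islets Apob went from near 0 to a low level, and Apobec1, Apoe, Apoc2, Cd36 and Msr1 rose, by between 1.47-fold and 2.62-fold. Lpl fell. Mttp and Abca1 did not pass the test, and Apoc1 was listed at 0 in 7 of the 10 libraries. Of the 10 genes, 9 passed the filter of a mean of at least 1 FPKM (fragments per kilobase of transcript, scaled to the mapped fragments of the library) in FL or in KO, and Apob and Apoc2 did so only through KO. By limma, 7 of these 9 were called at a Benjamini-Hochberg adjusted p of at most 0.05, with 6 higher and 1 lower, where 25.5% of the 13065 genes tested were called, 9.05% as higher and 16.5% as lower. Over all genes this split was 1183 higher and 2150 lower, and 1651 higher and 1485 lower after the libraries were rescaled by median ratio, with none of the 7 turning direction. In 5 of them, Apob, Apobec1, Apoe, Apoc2 and Msr1, every KO mouse was above every FL mouse, as in 6.67% of the genes tested, while groups did not overlap in either direction in 19.1%. The genes were chosen with results of these libraries known, so these counts describe the genes and do not stand as independent evidence.

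**Figure D1:**
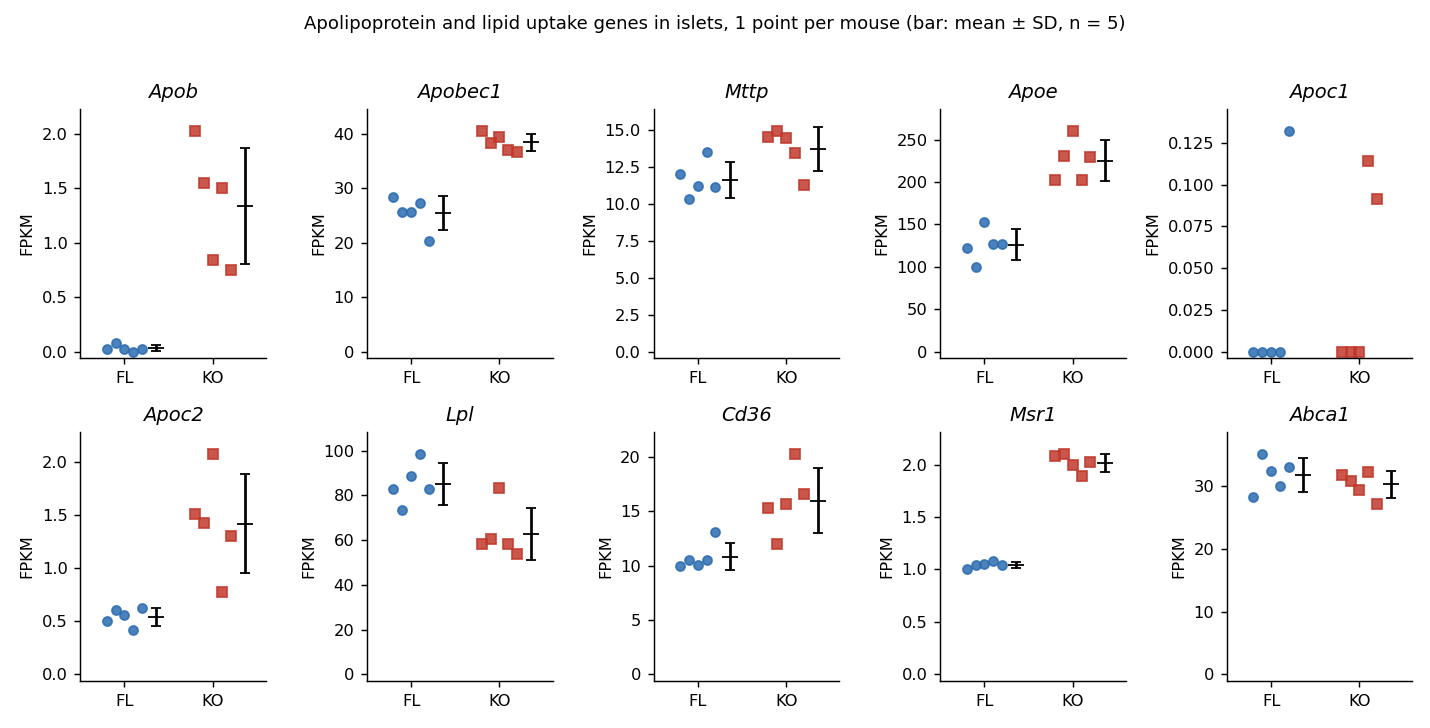
FPKM of the 10 genes (y axis, a separate scale for each gene) in FL (circles) and KO (squares) islets, with 1 point per mouse in the order of the replicate numbers, and bars at the mean ± SD (n = 5; none for Apoc1, which is mostly at 0). The KO points of Apob, Apobec1, Apoe, Apoc2 and Msr1 lie above all FL points, and those of Mttp, Lpl, Cd36 and Abca1 overlap with FL.

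The labels were checked on the deleted gene first. Fitm2, which encodes FIT2, ranged from 15.5 to 37.1 FPKM among FL mice and from 4.30 to 9.13 FPKM among KO mice, and these ranges do not overlap (adjusted p = 0.00228 from limma). The deposited values summed to 646233 to 675470 FPKM in FL libraries and 627084 to 653292 FPKM in KO libraries. The spacing of low values put the other libraries at 1.41 to 2.41 times the depth of FL mouse 1, the shallowest. Of genes that mark islet endocrine cells, Ins1, Ins2 and Gcg are listed at 0 in all 10 libraries, while Sst averaged 4976 FPKM and Ppy 9916 FPKM in FL. In this table a listed 0 may thus be a failed estimate, here and for the other genes listed at 0, and does not show that a transcript was absent. The listed β cell markers summed to 2273 to 2844 FPKM in FL and 1511 to 2124 FPKM in KO, and 6 of the 7 tested were lower in KO, Ucn3 and Slc30a8 among them, while G6pc2 did not pass. The α cell markers summed to 435 to 650 FPKM in FL and 288 to 429 FPKM in KO, also without overlap, with 2 of 5 tested lower, and the δ cell markers to 4960 to 5852 FPKM and 3993 to 5339 FPKM, with 1 of 4 lower. Across all genes tested the median log2 fold change was -0.06.

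Sequences at the Apob locus are shown first, because Apob had the largest relative change and Apobec1 acts on its messenger. Apob lies on chromosome 12 from 7977648 to 8016835 on the plus strand (GRCm38, GENCODE release M21). The letters TGATCAG are the core of the known mooring sequence of the edited site. In the transcript Apob-202 the CAA codon with these letters shortly after it was found once, although the letters alone occur 2 times. It is codon 2179 of 4505 and lies in exon 26 of 29, a coding exon of 7467 nt. The codon and the core letters are in capitals in the stretch chr12:8008042-8008071, on the plus strand.
Apob exon 26: acatacgcgataCAAttTGATCAGtatatt
Editing at this codon turns it into a stop. FPKM count whole transcripts, so how much of the Apob messenger was edited was not measured here.

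The bases just upstream of the transcription start of 4 of the genes that rose are given next, since these genes were all higher in every KO mouse. They are the 250 bases before the RefSeq start (GRCm38.p6), written 5′ to 3′ on the strand of the gene, with motif matches in capitals. The RefSeq start differs from the GENCODE gene start by 29 bases for Apob, 1550 bases for Mttp and 52905 bases for Cd36, whose stretch is thus that of a start inside the gene, and Apoe has 3 starts in the table, of which the one at the GENCODE start was used. Apob is chr12:7977427-7977676 on the plus strand, and Apobec1 is chr6:122602445-122602694, Apoe chr7:19699189-19699438 and Apoc2 chr7:19677942-19678191, all on the minus strand.
Apob: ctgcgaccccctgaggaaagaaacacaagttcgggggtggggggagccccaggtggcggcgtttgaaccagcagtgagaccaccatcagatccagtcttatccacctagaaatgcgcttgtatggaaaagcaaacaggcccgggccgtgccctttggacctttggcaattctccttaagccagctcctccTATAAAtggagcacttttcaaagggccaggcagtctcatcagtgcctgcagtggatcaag
Apobec1: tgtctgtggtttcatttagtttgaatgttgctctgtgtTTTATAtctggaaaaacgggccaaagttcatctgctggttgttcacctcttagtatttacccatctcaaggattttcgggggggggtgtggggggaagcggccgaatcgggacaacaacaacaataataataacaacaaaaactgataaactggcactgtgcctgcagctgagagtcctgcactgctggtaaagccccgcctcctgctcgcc
Apoe: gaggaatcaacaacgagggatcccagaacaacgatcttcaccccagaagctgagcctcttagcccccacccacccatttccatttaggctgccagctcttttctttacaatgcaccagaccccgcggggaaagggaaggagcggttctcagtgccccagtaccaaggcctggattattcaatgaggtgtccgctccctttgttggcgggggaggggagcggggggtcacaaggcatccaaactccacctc
Apoc2: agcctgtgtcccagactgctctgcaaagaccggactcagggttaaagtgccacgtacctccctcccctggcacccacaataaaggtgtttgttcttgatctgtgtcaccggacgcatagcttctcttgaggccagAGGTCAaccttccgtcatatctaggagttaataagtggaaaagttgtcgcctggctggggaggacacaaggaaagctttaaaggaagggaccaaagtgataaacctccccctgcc
Of the 10 genes, 7 matched an entry in the RefSeq table, and Apoc1, Lpl and Msr1 did not. Both strands were searched for the TATA box TATAAA, the CCAAT box, the GC box GGGCGG known for Sp factors, the STAT core TTCNNNGAA, the nuclear receptor element AGGTCA and the Fos and Jun element TGANTCA. The Apob stretch holds TATAAA, 60 bases before the start, a match present in 12.4% of the 32851 promoters of this length. Apobec1 holds it 212 bases before its start, on the other strand and so written TTTATA, and Abca1, which did not pass the test, holds it at 29 bases. Apoc2 holds AGGTCA at 115 bases and Cd36 at 228 bases, against 14.0% of promoters. Cd36 also holds CCAAT at 195 bases and GGGCGG at 109 and 93 bases, and Abca1 holds GGGCGG at 163 and 97 bases, where 33.8% and 32.7% of promoters hold these motifs. No motif searched was found in the Apoe or Mttp stretch, and neither TTCNNNGAA nor TGANTCA in any of the 7, where 7.02% and 6.75% of promoters hold them. No motif was thus shared by all the genes that rose, and a match is a description of letters only.

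Of the genes that build the particle, Apob had the largest change. It was at 0.0215, 0.0824, 0.0258, 0 and 0.0268 FPKM in FL mice 1 to 5 and at 2.03, 1.55, 0.842, 1.497 and 0.751 FPKM in KO mice 1 to 5. The lowest KO mouse was above the highest FL mouse, and the SD in FPKM was larger among KO mice, but relative to the mean it was larger among FL mice. With 1 read worth 0.00128 to 0.00309 FPKM at this gene, these values come to an estimated 0 to 41 reads in FL libraries and 412 to 1064 reads in KO libraries. The FL islets averaged 0.0313 ± 0.0306 FPKM and the KO islets 1.33 ± 0.532 FPKM (SD, n = 5), a 42.6-fold difference that became 71.9-fold without FL mouse 2, which held more Apob than the other FL mice. Fold changes on log2(FPKM + 1) understate how far low genes move, and on it the log2 fold change was 1.15 (SE 0.16, adjusted p = 0.000414 from limma). With a pseudocount of 0.01 in place of 1 it was 5.25. Even in KO islets Apob remained a low transcript, and its level was within the spread of that of Apoc2.

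Apobec1 (chromosome 6, 122577792 to 122602444, minus strand), the deaminase that edits the Apob messenger, was already well expressed in FL islets. It was at 28.4, 25.6, 25.7, 27.3 and 20.4 FPKM in FL mice and 40.6, 38.4, 39.5, 37.1 and 36.8 FPKM in KO mice. The lowest KO mouse was above the highest FL mouse, and KO mice were closer to each other than FL mice were. The FL islets averaged 25.5 ± 3.06 FPKM and the KO islets 38.5 ± 1.603 FPKM (SD, n = 5), a rise of 1.51-fold, and the log2 fold change was 0.58 ± 0.08 (SE; adjusted p = 0.00041 by limma).

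Mttp (chromosome 3, 138089854 to 138144968, minus strand), the transfer protein that loads apolipoprotein B, was at 12.0, 10.3, 11.2, 13.5 and 11.2 FPKM in FL mice and 14.5, 14.9, 14.5, 13.4 and 11.3 FPKM in KO mice. KO mouse 5 lay within the FL range and KO mouse 4 just below FL mouse 4. The log2 fold change was 0.22 (95% interval 0.03 to 0.41) with an adjusted p of 0.0834 from limma, so Mttp was not called. It was called when the libraries were rescaled (adjusted p = 0.0189 to 0.0466 from limma), with sample weights (0.0126), without FL mouse 4 (0.0389) and without KO mouse 5 (0.0200). The gene overlaps Trmt10a and Gm43691 in the annotation.

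Within each library the level of Apob was set against that of the genes that edit and load it. Apobec1 exceeded Apob by 9.59 ± 1.20 log2 units in FL and 4.94 ± 0.586 log2 units in KO (SD, n = 5), a difference of -4.65 between groups. Mttp exceeded Apob by 8.46 ± 1.29 and 3.45 ± 0.525 log2 units, a difference of -5.02. The size of both differences was set by the pseudocount of 0.01 FPKM, since Apob was at or near 0 in FL, and with a pseudocount of 1 FPKM they were -0.56 and -0.93. They restate the rise of Apob and are given as a description. Levels are per length, but the edited share and the protein were not measured.

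Of the exchangeable apolipoproteins, which move between particles, Apoe (chromosome 7, 19696109 to 19699188, minus strand) had the highest level of the 10 genes in both groups. It was at 122.8, 100.2, 152.6, 127.5 and 127.4 FPKM in FL mice and 202.1, 230.5, 260.5, 202.6 and 230.1 FPKM in KO mice. FL mouse 3 and KO mouse 3 were each the highest of their group, and the lowest KO mouse was well above the highest FL mouse. The FL islets averaged 126 ± 18.6 FPKM and the KO islets 225 ± 24.2 FPKM (SD, n = 5), a rise of 1.785-fold, and the log2 fold change was 0.84 ± 0.11 (SE; adjusted p = 0.000268 by limma). In FL islets the level of Apoe was above that of 93.5% of the genes tested.

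Apoc2 (chromosome 7, 19671579 to 19677941, minus strand), the activator of lipoprotein lipase, lies in the same cluster as Apoe and Apoc1. It was at 0.499, 0.604, 0.562, 0.415 and 0.630 FPKM in FL mice and 1.51, 1.42, 2.08, 0.779 and 1.30 FPKM in KO mice. KO mouse 4 was the lowest of its group and still above FL mouse 5. The rise was 2.62-fold, from 0.542 ± 0.0865 to 1.42 ± 0.467 FPKM (SD, n = 5), and the log2 fold change was 0.63 ± 0.14 (SE; adjusted p = 0.00682 by limma). A second row with this symbol carries the identifier of Gm44805, a locus that overlaps Apoc2, and was at 0 to 0.000418 FPKM in the 10 libraries.

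Apoc1 (chromosome 7, 19689481 to 19692660, minus strand), between the other 2 in the cluster, was listed at 0 in 4 FL and 3 KO mice and at 0.132 FPKM in FL mouse 5, 0.114 FPKM in KO mouse 4 and 0.0916 FPKM in KO mouse 5. It was under the filter and was not tested. Thus 3 neighbouring apolipoprotein genes on the same strand were listed at very different levels, though the values of 0 for Apoc1 may be failed estimates. The 2 that could be tested both rose.

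Lpl (chromosome 8, 68880491 to 68907448, plus strand), the lipase that frees fatty acids from lipoproteins, was the only one of the 10 genes that fell. It was at 82.7, 73.3, 88.5, 98.7 and 82.8 FPKM in FL mice and 58.1, 60.5, 83.2, 58.4 and 53.9 FPKM in KO mice. KO mouse 3 stood apart from the other KO mice and within the FL range. The FL islets averaged 85.2 ± 9.31 FPKM and the KO islets 62.8 ± 11.7 FPKM (SD, n = 5), 1.36-fold lower, and the log2 fold change was -0.44 ± 0.11 (SE; adjusted p = 0.0168 by limma). Without KO mouse 3 it was -0.55 (adjusted p = 0.00106 from limma). Its activator Apoc2 thus moved in the opposite direction to the lipase, at a far lower level.

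Cd36 (chromosome 5, 17781690 to 17888801, minus strand), the fatty acid translocase, was at 9.997, 10.5, 10.1, 10.5 and 13.0 FPKM in FL mice and 15.3, 12.0, 15.7, 20.3 and 16.6 FPKM in KO mice. FL mouse 5 was above KO mouse 2, and the other KO mice were above all FL mice. The FL islets averaged 10.8 ± 1.26 FPKM and the KO islets 16.0 ± 2.98 FPKM (SD, n = 5), a rise of 1.47-fold, and the log2 fold change was 0.51 ± 0.12 (SE; adjusted p = 0.01004 by limma).

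Msr1 (chromosome 8, 39581685 to 39642673, minus strand), the scavenger receptor of macrophages, varied little among the mice of a group. It was at 1.01, 1.04, 1.05, 1.08 and 1.04 FPKM in FL mice and 2.08, 2.10, 1.99, 1.89 and 2.02 FPKM in KO mice. All KO mice were above all FL mice at a low level in both groups. The FL islets averaged 1.04 ± 0.028 FPKM and the KO islets 2.02 ± 0.0843 FPKM (SD, n = 5), a rise of 1.93-fold, and the log2 fold change was 0.56 ± 0.07 (SE; adjusted p = 0.000159 by limma).

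Abca1 (chromosome 4, 53030787 to 53159895, minus strand), the cholesterol exporter, was at 28.3, 35.2, 32.5, 30.04 and 33.1 FPKM in FL mice and 31.9, 30.9, 29.4, 32.3 and 27.1 FPKM in KO mice. The groups overlapped nearly in full. The log2 fold change was -0.07, with a 95% interval of -0.22 to 0.08 (adjusted p = 0.512 from limma). Within a library Lpl exceeded Abca1 by 1.42 log2 units in FL and 1.04 log2 units in KO, a difference of -0.38 that did not pass after adjustment over 7 ratios (exact permutation p = 0.0476, adjusted p = 0.111).

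**Figure D2:**
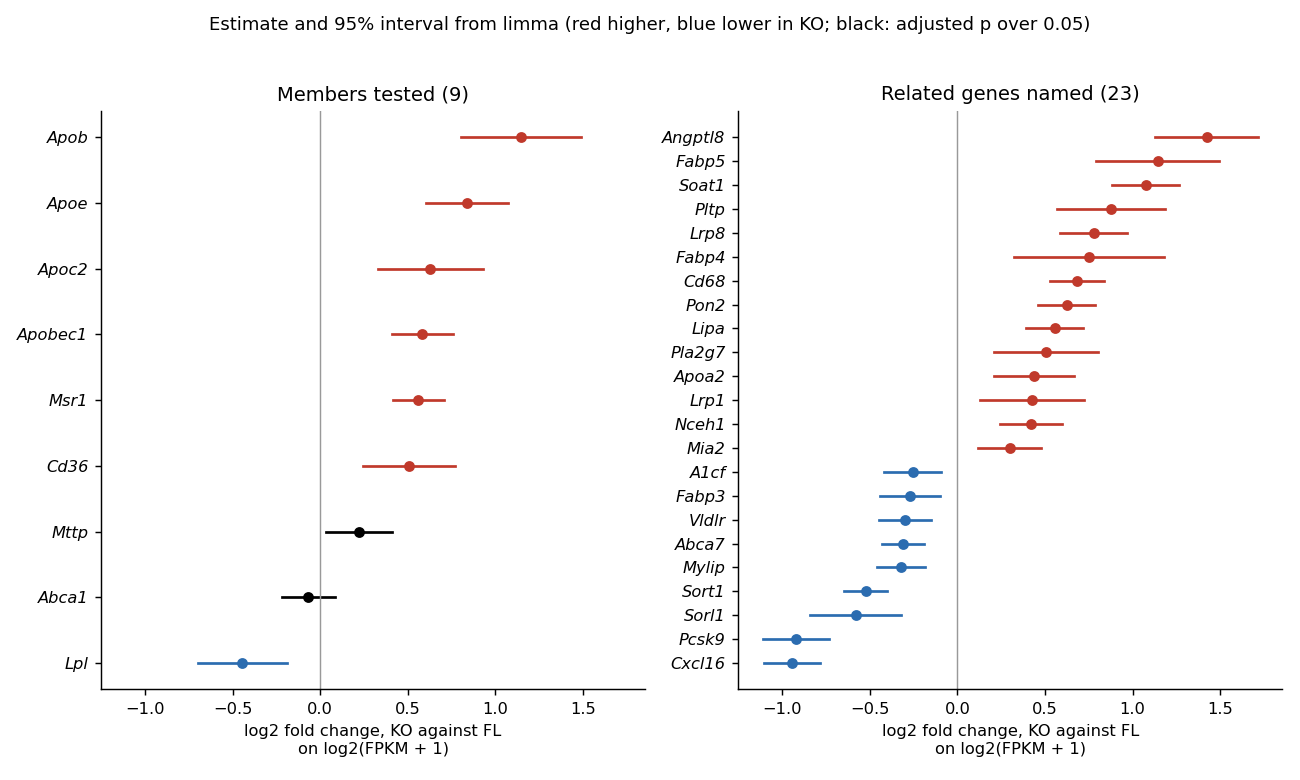
Log2 fold change of KO against FL on the log2(FPKM + 1) scale for the 9 genes tested, with 95% intervals from limma. Apob has the largest value at 1.15, Lpl is the only one below 0 whose interval does not reach 0, and the interval of Abca1 spans 0.

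Ordered by level, the genes ran in FL from Apoe through Lpl, Abca1, Apobec1, Mttp, Cd36, Msr1, Apoc2 and Apob to Apoc1, at a mean of 126 FPKM for Apoe and 0.0313 FPKM for Apob. In KO Apobec1 stood above Abca1 and Cd36 above Mttp. The mice of neighbouring genes overlapped for Abca1 and Apobec1, for Mttp and Cd36 and for Apob and Apoc1 in FL, and for Cd36 and Mttp, for Msr1 and Apoc2 and for Apoc2 and Apob in KO. No KO mouse was highest for all the genes that rose. KO mouse 1 was highest for Apob and Apobec1, KO mouse 3 for Apoe and Apoc2, KO mouse 4 for Cd36 and KO mouse 2 for Msr1.

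Several of these genes are also transcribed in macrophages or endothelial cells, and markers of those cells were examined in the same libraries. In bulk islets, fewer cells of a type and less RNA per cell cannot be told apart. Listed macrophage markers summed to 171 to 215 FPKM in FL and 241 to 284 FPKM in KO, 1.40-fold higher and without overlap, and 6 of the 12 tested rose with 0 falling. Lyz2 went from 25.7 to 48.3 FPKM and Ctss from 26.8 to 38.1 FPKM, while C1qa, at 74.7 and 91.8 FPKM, did not pass (adjusted p = 0.055 from limma). Endothelial markers summed to 180 to 211 FPKM and 204 to 270 FPKM, with 4 of 9 higher. Of the 3 at the highest level over all libraries, Plvap went from 56.6 to 72.8 FPKM and Pecam1 from 21.8 to 28.0 FPKM. Emcn, at 43.2 and 46.8 FPKM, did not pass (adjusted p = 0.548 from limma). Kdr, close to Pecam1 at 21.9 and 26.8 FPKM, did not pass either (adjusted p = 0.0625 from limma). Fibroblast and stellate cell markers summed to 18.4 to 27.2 FPKM and 35.0 to 44.3 FPKM, with all 6 tested higher, among them Col3a1, Rgs5 and Pdgfrb. Schwann cell markers summed to 5.44 to 9.74 FPKM in FL and 9.92 to 12.7 FPKM in KO, with 1 of 2 tested higher. Duct markers summed to 459 to 538 FPKM in FL and 374 to 433 FPKM in KO, with 1 of 5 tested higher and 1 lower. No macrophage, endothelial or fibroblast marker listed was at 0 throughout. The part of these cells in the rise of Apoe, Apoc2, Cd36, Msr1 and Apobec1 was not tested.

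Set against the summed macrophage markers within each library, Apoe was at -0.58 ± 0.189 log2 units in FL and -0.22 ± 0.124 log2 units in KO (SD, n = 5), a difference of 0.36 (exact permutation p = 0.00794, the smallest 5 mice against 5 can give, adjusted p = 0.0278 over the 7 of 9 ratios computed that do not hold Apob). All KO mice were above all FL mice, though FL mouse 3 and KO mouse 4 were both at -0.31. Msr1 against the same sum rose by 0.46 log2 units (exact permutation p = 0.00794, adjusted p = 0.0278), but only by 0.08 with a pseudocount of 1 FPKM in place of 0.01. Apobec1 against the sum differed by 0.12 (exact permutation p = 0.318) and Cd36 by 0.06 (0.770), while Cd36 against the endothelial sum differed by 0.28 (0.159), so none of these 3 ratios passed the test.

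**Figure D3:**
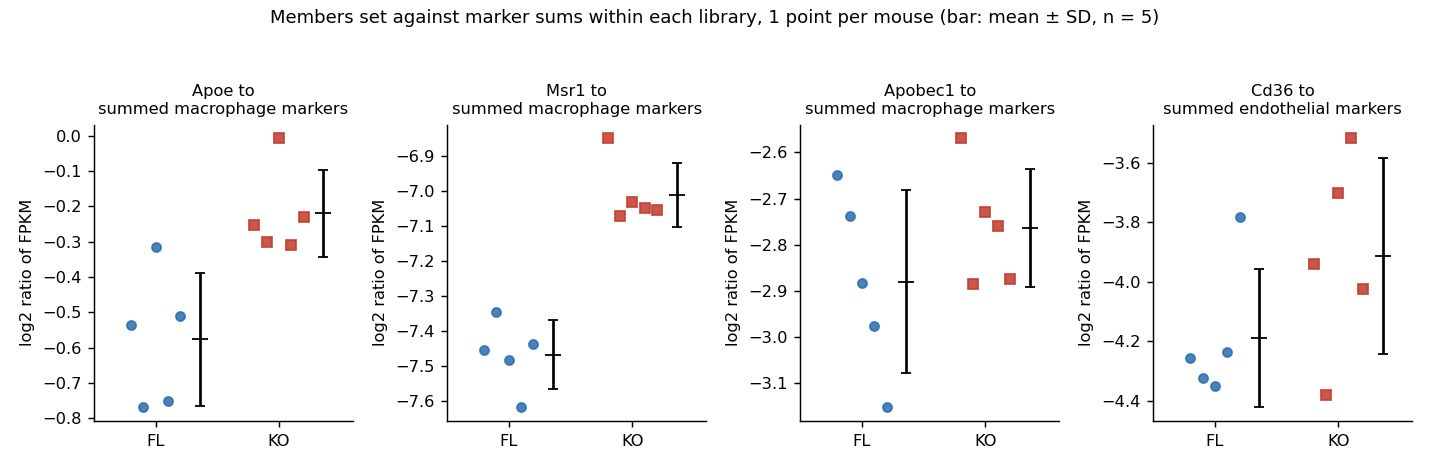
Log2 ratios within each library, 1 point per mouse, in FL and KO islets, with bars at the mean ± SD (n = 5). The KO mice lie above FL for Apoe and Msr1 to the summed macrophage markers. They overlap with FL for Apobec1 to the macrophage markers and for Cd36 to the summed endothelial markers.

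Liver and gut, which make apolipoprotein B in quantity, were checked by their own markers, and adipocyte and acinar markers were examined beside them. Of hepatocyte markers Cyp2e1 was listed at 0 in all libraries, Fgg averaged 0.956 FPKM among FL mice and 0.735 FPKM among KO mice, Alb averaged 0.331 and 0.188 FPKM, and Tat, at 28.3 and 11.8 FPKM, was lower in KO. Of enterocyte markers Sis was listed at 0 throughout and Lct averaged 0.0461 and 0.0349 FPKM, whereas Vil1, at 48.6 and 51.8 FPKM, did not pass the test and Anpep, at 21.8 and 12.9 FPKM, was lower in KO (adjusted p = 0.00832 from limma). The adipocyte markers Adipoq, Retn and Cfd were listed at 0 throughout, and Cidec, the highest, averaged 0.204 and 0.235 FPKM. Acinar markers, led by Ctrb1, Cela1 and Prss2, ranged widely in both groups, with sums of 4261 to 11293 FPKM in FL and 2808 to 20919 FPKM in KO, and 0 of 9 were called by limma (0 of 9 also at an unadjusted p under 0.05).

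The rest of the pathway was read from 7 lists of related genes without the 10 above. Of 86 such genes 49 passed the filter, and 14 rose, 10 fell and 25 did not pass, so 49.0% were called, where 25.5% of all genes tested were, 9.05% as higher and 16.5% as lower. Their median log2 fold change was -0.02, against -0.06 over all genes tested. The lists thus moved in both directions, with the lipase list highest and the lipoprotein receptor list lowest.

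**Figure D4:**
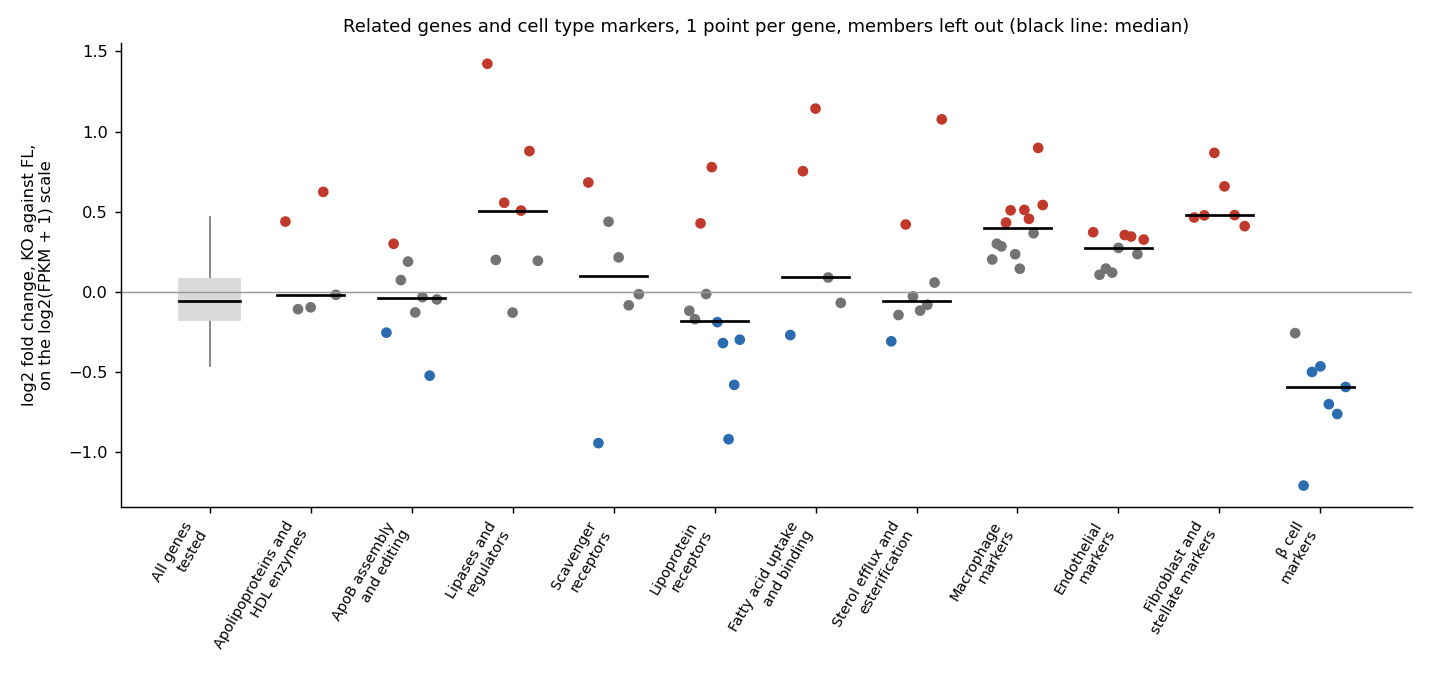
Log2 fold change of KO against FL on the log2(FPKM + 1) scale for each tested gene of 7 related lists and 4 marker lists, without the 10 genes, coloured red where called higher, blue where called lower and grey where not called. Black lines are medians, and for all genes tested the box spans the percentiles 25 to 75 and the whisker the percentiles 5 to 95. The lipase list has a median of 0.51 and the lipoprotein receptors one of -0.18.

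Of the other apolipoproteins and HDL enzymes, 5 of 16 were tested and 2 rose. Pon2, a membrane paraoxonase, rose from 13.3 to 20.995 FPKM (adjusted p = 0.000151 from limma) and Apoa2, an HDL apolipoprotein, from 3.29 to 4.77 FPKM (adjusted p = 0.0115 from limma). Saa2 and Pon1 were listed at 0 in all libraries, and Apoa1 averaged 0.0737 FPKM in FL and 0.240 FPKM in KO.

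Of the genes that assemble or edit apolipoprotein B, 8 of 11 were tested. Sort1, a sorting receptor, fell from 59.3 to 41.0 FPKM (adjusted p = 7.84e-05 from limma), and Mia2, which packs large cargo for export from the ER, rose from 32.1 to 39.9 FPKM (adjusted p = 0.0217 from limma; not passed in 3 of 21 other fits). A1cf, a cofactor of Apobec1, fell from 4.02 to 3.20 FPKM (adjusted p = 0.0268 from limma), and the other cofactor Rbm47, at 29.7 and 27.1 FPKM, did not pass. The fall of A1cf did not pass in 10 of the 20 other fits that tested it, whereas the rise of Apobec1 passed in all 21.

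Among lipases and their regulators 4 of 7 tested rose and 0 fell. Angptl8, an inhibitor of lipoprotein lipase, rose from 1.44 to 5.48 FPKM (log2 fold change 1.42, adjusted p = 2.9e-05 from limma), so Lpl fell while its activator Apoc2 and its inhibitor Angptl8 both rose. Pltp, which transfers phospholipid between particles, rose from 2.14 to 4.80 FPKM, the lysosomal acid lipase Lipa from 13.3 to 19.997 FPKM and the phospholipase Pla2g7 from 7.88 to 11.4 FPKM (adjusted p = 0.00118, 0.000392 and 0.0187 from limma). Gpihbp1, the endothelial anchor of lipoprotein lipase, was at 16.6 and 19.0 FPKM and did not pass (adjusted p = 0.408 from limma).

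Of the scavenger receptors other than Cd36 and Msr1, Cd68, a macrophage protein, rose from 22.8 to 37.1 FPKM (adjusted p = 5.99e-05 from limma), and Cxcl16, a chemokine that also binds oxidised lipoprotein, fell from 46.5 to 23.7 FPKM (adjusted p = 6.61e-06 from limma). Of the lipoprotein receptors and their regulators 5 of 10 tested fell and 2 rose. Sorl1, a sorting receptor, fell from 41.9 to 28.0 FPKM (adjusted p = 0.00469 from limma), and Vldlr, the receptor for very low density lipoprotein, fell from 37.1 to 30.1 FPKM (adjusted p = 0.00801 from limma). Lrp8, a receptor of apolipoprotein E, rose from 8.70 to 15.6 FPKM (adjusted p = 0.000116 from limma), and Lrp1, another one, from 6.88 to 9.77 FPKM (adjusted p = 0.0387 from limma; not passed in 9 of 21 other fits). Receptors that bind the product of Apoe thus moved in both directions.

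Among genes of fatty acid uptake and binding, Fabp5 rose from 8.44 to 19.9 FPKM and Fabp4 from 14.4 to 24.4 FPKM (adjusted p = 0.000493 and 0.0164 from limma), beside Cd36, and Fabp3 fell from 4.06 to 3.18 FPKM (adjusted p = 0.0265 from limma; not passed in 8 of 20 other fits). All 3 encode carriers of fatty acids in the cytosol. Of the genes for sterol efflux and esterification, Soat1, which esterifies cholesterol for storage, rose from 30.1 to 64.5 FPKM (adjusted p = 1.01e-05 from limma), and Nceh1, which hydrolyses the ester, rose from 21.7 to 29.3 FPKM (adjusted p = 0.00333 from limma). Abca7 fell from 8.28 to 6.48 FPKM (adjusted p = 0.00203 from limma), and Abcg1, at 42.1 and 37.9 FPKM, did not pass, as Abca1 did not. Soat2, the other esterifying enzyme listed, was under the filter and not tested, and Abca7 was the only listed exporter tested that passed.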

How the data were processed

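Islet RNA of 5 FL and 5 KO mice was sequenced as poly(A) stranded libraries, single-end, 75 nt. The values are FPKM, as the authors deposited them in 1 table. Per the submitters' processing notes, STAR 2.5.2a, Cuffnorm 2.2.1 and the builds GRCm38 and mm10 were used, and the annotation release and library scaling are not given in the sources used here. FPKM hold no read numbers, so depth was estimated from the spacing of low values (98.4% to 99.5% of values lay within 0.1 of a whole read). Reads were not processed again.

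Differences between KO and FL were fitted in R 4.3.3 by limma 3.58.1 (lmFit and eBayes, trend option, no covariate) on log2(FPKM + 1). Of 47340 genes, the 13065 whose FL or KO average reached 1 FPKM were tested, Benjamini-Hochberg adjustment ran over all of these, and the threshold was an adjusted p of 0.05. Single ratios, on log2 values with a pseudocount of 0.01, went through an exact permutation test, two-sided, and adjusted over the 7 of 9 ratios without Apob, a family chosen after seeing the data (over all 9, the adjusted p of 0.0278 is 0.0179 and that of 0.111 is 0.0857). The fit was tested on simulated data, but the outcome is not reported here and no result rests on it. Summaries and plots used matplotlib 3.10.9, numpy 2.4.6 and pandas 2.3.3 under Python 3.11.15. Coordinates are from GENCODE release M21, in which the identifiers of Lpl and Msr1 match only without their version, and promoters from the RefSeq table of GRCm38.p6.

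All 10 genes are named, with at most 4 called genes per direction of each related list, markers from among the 3 of highest level in each marker list described, markers at 0, and others chosen after their values were seen as context. Some genes of the lists are part of the counts but are not reported here by name. The genes and lists were chosen with earlier results of these data known. Alternatives were other pseudocounts, filters, scalings and limma settings, a fold threshold of 1.5, the replicate number as a block, and leaving out each mouse in turn.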

Additional observations from a re-analysis of the deposited data

Results flagged for a closer look

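Over 34 genes named here, 68 groups of 5 mice were examined for a mouse whose gap to its nearest neighbour took more than 0.71 of the group's range. Chance flags about 1 in 20 groups, which is 3.4 here, and 5 were found. Lpl was at 83.2 FPKM in KO mouse 3, where the other KO mice were at 53.9 to 60.5 FPKM. Cd36 was at 13.0 FPKM in FL mouse 5, where the other FL mice were at 9.997 to 10.5 FPKM. Apoc1 was at 0.132 FPKM in FL mouse 5 and at 0 in the other FL mice. Angptl8 was at 4.25 FPKM in KO mouse 1, where the other KO mice were at 5.602 to 5.96 FPKM. Lrp8 was at 10.7 FPKM in FL mouse 3, where the other FL mice were at 7.92 to 8.68 FPKM.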

How the results depend on the processing

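The 7 genes of the 10 that were called were called in the same direction in every other fit that tested them. Requiring in addition a change of at least 1.5-fold on the log2(FPKM + 1) scale, which is smaller than the fold of the means, left 349 higher and 290 lower genes over the whole table, 3 higher and 0 lower of the 10 genes, and 8 higher and 2 lower related genes. A filter at 5 FPKM left 3 of the 10 genes called higher, since it removed Apob, Apoc2 and Msr1 from the test. The ratio of Msr1 to macrophage markers was 0.0771 with a pseudocount of 1 (exact permutation p = 0.31). Leaving out 1 mouse, Lpl to Abca1 ranged from -0.50 to -0.31 and passed an exact permutation test only without FL mouse 2 or KO mouse 3. Cd36 to endothelial markers ranged from 0.18 to 0.39 and passed without KO mouse 2 (exact permutation p = 0.0476). Cd36 to macrophage markers ranged from -0.05 to 0.19 and turned sign without FL mouse 4 (-0.00056) or KO mouse 4 (-0.0461). Mia2 was not called without FL mouse 3 or KO mice 1 or 4, A1cf without FL mice 2, 3 or 5 or KO mice 1, 2 or 3, Fabp3 without FL mice 1, 2 or 4 or KO mice 3 or 5, and Lrp1 without any FL mouse or KO mice 1, 3 or 5. Replicate numbers did not pair the mice (correlations of same-numbered mice from -0.10 to 0.00305, and no mouse correlated best with its own number). With the replicate block, 874 genes were higher and 1494 lower, and 6 of the 10 genes higher and 1 lower. Depth limits Apob in FL, at an estimated 0 to 41 reads. Only 5 mice per group bound the precision, and the causes of these changes were not tested.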

Other observations

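As a description, the genes whose deviations from the group means were most like those of a named gene over the 10 libraries were sought among the 9649 genes whose average was 5 FPKM or more. For Apob they were Fam159b (Pearson r 0.951), Tnfrsf11b (0.925) and Cds1 (0.899). For Apoe they were Rab3b (0.941), Zfp428 (0.924) and R3hdm4 (0.914), and for Lpl they were Mrpl21 (0.970), Eif4e3 (0.946) and Ift57 (0.945). The points share their libraries and depth, and the highest of so many values is large by selection.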
